A study of Mus musculus with 2 samples.

Results

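The genes described here are 10 components and regulators of the neuronal cytoskeleton. They are the neurofilament subunit genes Nefl, Nefm and Nefh with the related Ina, the microtubule-binding genes Mapt, Map2 and Map1b, the tubulin-binding gene Stmn1, and the tau kinase gene Cdk5 with its activator Cdk5r1. They were chosen by name, and all probe sets that the platform annotation pairs with exactly 1 of these symbols were taken, which gave 14 of the 12418 probe sets and 10 of the 8251 named genes. Total RNA of mouse cerebral cortex was hybridised to 2 arrays. The first held RNA of the presenilin conditional double knockout, PS cDKO below, and the other RNA of its control, each taken at 6 months of age. The labels give no strain, sex, allele or Cre driver, and no number of animals behind an array. In the published line of this name, as background, a presenilin gene is deleted after birth by Cre under the Camk2a promoter, which acts in excitatory forebrain neurons, while the other presenilin gene is inactivated in all cells.

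With 1 array per genotype, no difference could be set against variation between animals, so sizes are given and no p-value. Values are linear array intensities. Ratios are PS cDKO over control, after the PS cDKO array was scaled by 0.034 on the log2 scale and intensities below 232 were set to that floor. The only Psen2 probe set gave 94.9 in PS cDKO and 105 in control, both below the floor, so it was no check of the genotype. Of the markers in 9 cell type and region lists, 10 of 10 neuron genes exceeded the floor in both genotypes, as did the cortical projection neuron genes Tbr1 (630 in PS cDKO and 899 in control, scaled) and Nrgn (1356 and 2014). Of 8 cortical projection neuron genes with a probe set of their own, Neurod6 was below the floor on both. Of the cerebellar markers Pcp4 and Zic1 were below the floor on both arrays. The suffixed Pcp2 probe set 102376_r_at read 3658 in PS cDKO and 3523 in control, and a further Pcp2 probe set read 191 and 177. Calb1 read 519 in PS cDKO and 611 in control, and Cbln1 read 710 and 719, all above the floor. Cbln1 was named after its values were seen.

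Neurofilaments are the main intermediate filaments of axons. They are copolymers of light, medium and heavy chains and α-internexin, and their content helps to set axon calibre. Tau, the product of Mapt, binds microtubules mainly in axons, MAP2 mainly in dendrites and cell bodies, and MAP1B most strongly in growing axons. The kinase CDK5, which needs a non-cyclin activator such as p35 from Cdk5r1, phosphorylates tau and neurofilament tails, and phosphorylated tau forms the tangles of Alzheimer's disease.

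Promoter sequence was at hand for 3 of the 10 genes, Ina, Map2 and Map1b. All 3 are shown. On the arrays they were, in this order, lower in PS cDKO, lower with only a bound, and near equal. Each is the 250 bases before the annotated start, from RefSeq on GRCm38.p6, read 5′ to 3′ on the gene's strand: Ina at chr19:47014431-47014680 (+), Map2 at chr1:66175079-66175328 (+) and Map1b at chr13:99516603-99516852 (-). Capitals mark matches, on either strand, to a GC box (GGGCGG) or a TATA box (TATAAA), and no marked matches overlap.
Ina: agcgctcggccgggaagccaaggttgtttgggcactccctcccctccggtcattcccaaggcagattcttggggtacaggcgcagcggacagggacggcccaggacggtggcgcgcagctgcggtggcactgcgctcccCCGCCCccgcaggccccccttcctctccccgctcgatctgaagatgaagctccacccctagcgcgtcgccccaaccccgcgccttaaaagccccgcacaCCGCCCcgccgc
Map2: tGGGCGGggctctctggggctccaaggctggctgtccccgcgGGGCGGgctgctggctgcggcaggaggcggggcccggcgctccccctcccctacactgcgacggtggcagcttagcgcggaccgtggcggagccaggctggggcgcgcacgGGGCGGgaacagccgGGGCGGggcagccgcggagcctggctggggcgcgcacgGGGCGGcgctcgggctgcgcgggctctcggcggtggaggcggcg
Map1b: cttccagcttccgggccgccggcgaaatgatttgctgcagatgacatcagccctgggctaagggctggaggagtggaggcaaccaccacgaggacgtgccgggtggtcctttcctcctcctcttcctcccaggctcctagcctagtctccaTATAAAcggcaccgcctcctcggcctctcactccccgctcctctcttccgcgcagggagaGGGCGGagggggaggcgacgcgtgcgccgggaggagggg
The GC box was found 2 times in Ina, 5 times in Map2 and 1 time in Map1b, and 32.7% of the 32851 promoters of the same length held at least 1. TATAAA was found in Map1b alone of the 3, and 12.4% of all promoters held it. The letters CCAAT, TGACGTCA (the cyclic AMP response element) and CACGTG (an E-box), also searched on both strands, were in none of these windows, against 33.8%, 1.55% and 6.02% of all promoters. The windows had GC contents of 70.8% for Ina, 81.2% for Map2 and 66.4% for Map1b, against a median of 52.4% over all promoters. These matches describe the letters and were not tied to the array values.

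Across the 10 genes the neurofilament light chain, tau and CDK5 were the lowest in PS cDKO cortex relative to control, while the heavy chain and p35 had ratios above 0, MAP1B was near equal, and the 2 stathmin probe sets disagreed in direction. Nefl was 1.39-fold, Cdk5 1.35-fold and Mapt 1.29-fold lower. By gene value 6 genes, including the Map2 bound, were lower and 4 higher, with Stmn1 higher only as the mean of its discordant probe sets. Of the 5414 genes that exceeded the floor in both genotypes, 49.2% were lower at any size, which is the background for such counts here and below. Log2 ratios lay between -0.47 and 0.26, with a median of -0.18. The median over all 5886 measured genes was 0.01. At 1.3-fold, 2 of the 10 genes, Nefl and Cdk5, were lower, against a background of 5.15% of the genes measured, and 0 of 10 were higher, against 5.35%. At 1.2-fold 3 genes were lower (background 12.9%) and 1 was higher (background 12.5%), and at 1.5-fold 0 were lower (background 0.815%) and 0 higher (background 1.12%). By probe set, 4 of 14 were at least 1.3-fold lower (background 5.62%) and 1 of 14 at least 1.3-fold higher (background 5.68%). In bulk cortex, fewer cells of a type and less RNA per cell cannot be told apart, here or below. The 14 are not independent, since Mapt has 3 probe sets and Ina and Stmn1 have 2 each.

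**Figure D1:**
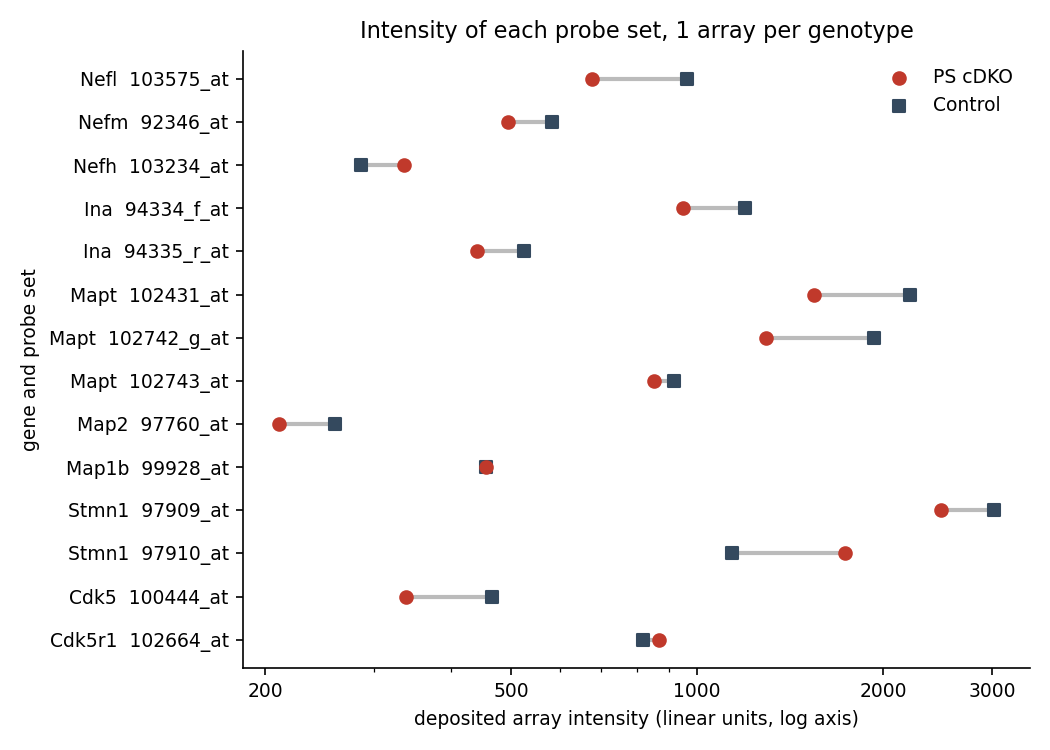
Deposited linear intensity (log axis) of each of the 14 probe sets on the PS cDKO array (red circles) and the control array (dark squares), with a grey line joining the 2 arrays. The PS cDKO point lies left of control for 10 probe sets and right of it for Nefh, Map1b, Cdk5r1 and the Stmn1 probe set 97910_at.

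Among the neurofilament genes, the light chain was lowest and the heavy chain differed in direction from the others. The Nefl probe set 103575_at read 675 in PS cDKO and 961 in control. This is a log2 ratio of -0.47, and 130 of the 5414 genes that exceeded the floor in both genotypes, Nefl included, had a ratio as low. Nefm, the medium chain, read 494 in PS cDKO and 582 in control, 1.15-fold lower after scaling. Its ratio was unexceptional on these arrays, since 18.9% of genes lay lower.

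Ina, which encodes α-internexin, was lower in both of its probe sets. Probe set 94334_f_at read 948 in PS cDKO and 1197 in control, and 94335_r_at read 439.7 in PS cDKO and 524 in control. Their log2 ratios were -0.30 and -0.22, with a gene value of -0.26. Both were designed from the same source sequence and carry a suffix, which on this array type marks probes that can match related transcripts or were picked under relaxed rules. They are therefore no independent pair.

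Nefh, the heavy chain whose long tail is the most heavily phosphorylated, read 335 in PS cDKO and 285 in control. Its log2 ratio was 0.26, and 634 of 5414 genes had a ratio as high. The Nefh log2 ratio exceeded that of Nefl by 0.74. Its signal was close to the middle of both arrays, with 53.4% of probe sets dimmer in PS cDKO and 48.2% in control, and it gave no ratio when the floor was raised to the 60th percentile. Over the 4 genes the median log2 ratio was -0.23, with 3 of 4 lower.

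Tau was lower in all 3 probe sets, to unequal degrees. Probe set 102431_at read 1547 in PS cDKO and 2213 in control, a 1.40-fold difference. Probe set 102742_g_at read 1293 in PS cDKO and 1930.45 in control, a 1.46-fold difference, and 1.68% of the 7091 probe sets that exceeded the floor in both genotypes had a lower ratio. These 2 come from the same source sequence and share the larger difference. The third, 102743_at, comes from another source sequence and read 853 in PS cDKO and 916 in control, 1.05-fold lower, with 38.1% of probe sets lower. The mean over the 3 gave Mapt a log2 ratio of -0.37, just short of 1.3-fold. With the brightest probe set alone it was -0.48, without the suffixed probe set it was -0.28, and after lowess it was -0.31. Which Mapt transcripts each probe set matches was not determined.

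The other microtubule-binding genes, Map2 and Map1b, have a single probe set each. Map2 read 211 in PS cDKO and 259.6 in control, close to the floor of 232. It was at least 1.12-fold lower as a bound, and its log2 ratio was -0.27 with no floor. Map1b read 456 in PS cDKO and 454 in control, a log2 ratio of 0.04 after scaling and 0.0037 as deposited.

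Stmn1 encodes stathmin, which binds tubulin dimers and promotes microtubule disassembly, and its 2 probe sets disagreed in direction. Probe set 97909_at read 2479.9 in PS cDKO and 3021 in control, 1.19-fold lower. Probe set 97910_at, from another source sequence, read 1735 in PS cDKO and 1139 in control, 1.56-fold higher, and it was the only 1 of the 14 past 1.5-fold in either direction (background 1.27% of probe sets higher and 1.01% lower). The log2 ratios differ by 0.89, against a median difference of 0.20 between the 2 brightest probe sets of 749 genes, and 8 of these genes, Stmn1 included, differed as much. The mean of the pair, 0.19, is therefore not a usable level for the gene.

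The kinase gene was lower, and its activator differed little. Cdk5 read 338 in PS cDKO and 466 in control, a log2 ratio of -0.43, and 187 of 5414 genes had a ratio as low. Cdk5r1, which encodes p35, read 867 in PS cDKO and 817 in control, a log2 ratio of 0.12, and 1638 of 5414 genes had a ratio as high. Its ratio is thus unexceptional on these arrays. The activator's log2 ratio exceeded that of the kinase by 0.55. The Cdk5 signal was above the middle of both arrays, with 53.7% of probe sets dimmer in PS cDKO and 65.5% in control, but with a floor at the 60th percentile only a bound of -0.21 remained. The other activator gene, Cdk5r2 (p39), was near equal at 980 in PS cDKO and 988 in control, both scaled; it was named after its values were seen.

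**Figure D2:**
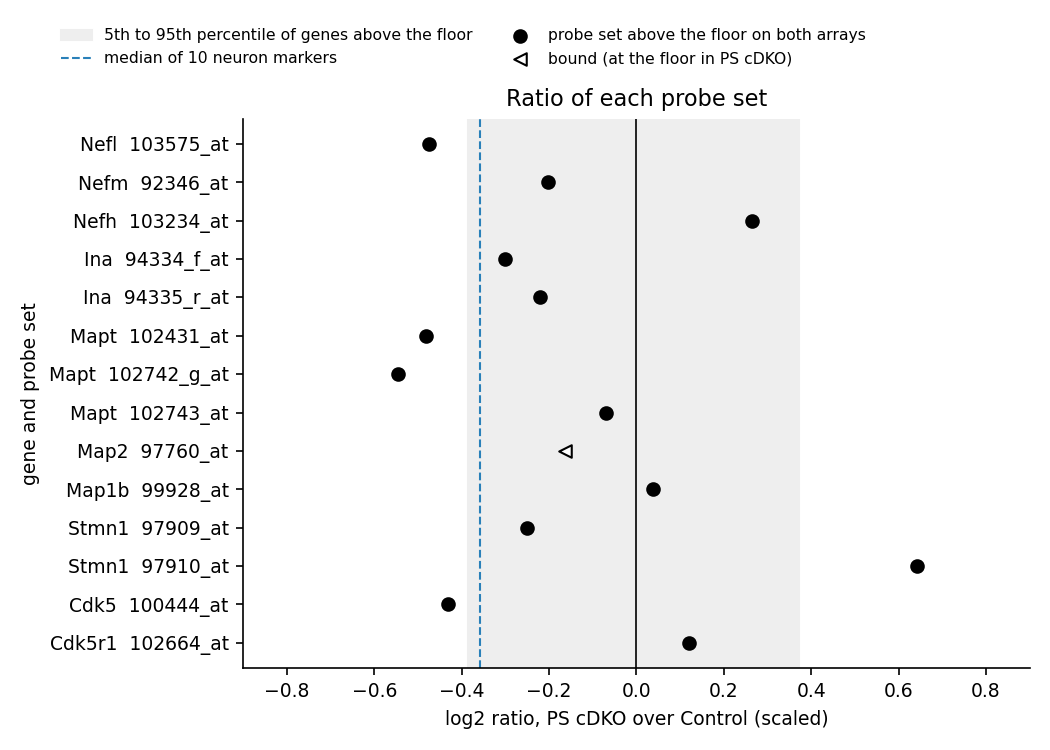
Log2 ratio of PS cDKO over control for each probe set (filled points, and an open triangle for the Map2 bound of -0.16), with the range from the 5th to the 95th percentile of genes exceeding the floor in both genotypes in grey (-0.38 to 0.37) and the median of 10 neuron markers as a dashed line (-0.36). Nefl, Cdk5 and 2 Mapt probe sets lie below the grey range and 1 Stmn1 probe set above it.

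**Figure D3:**
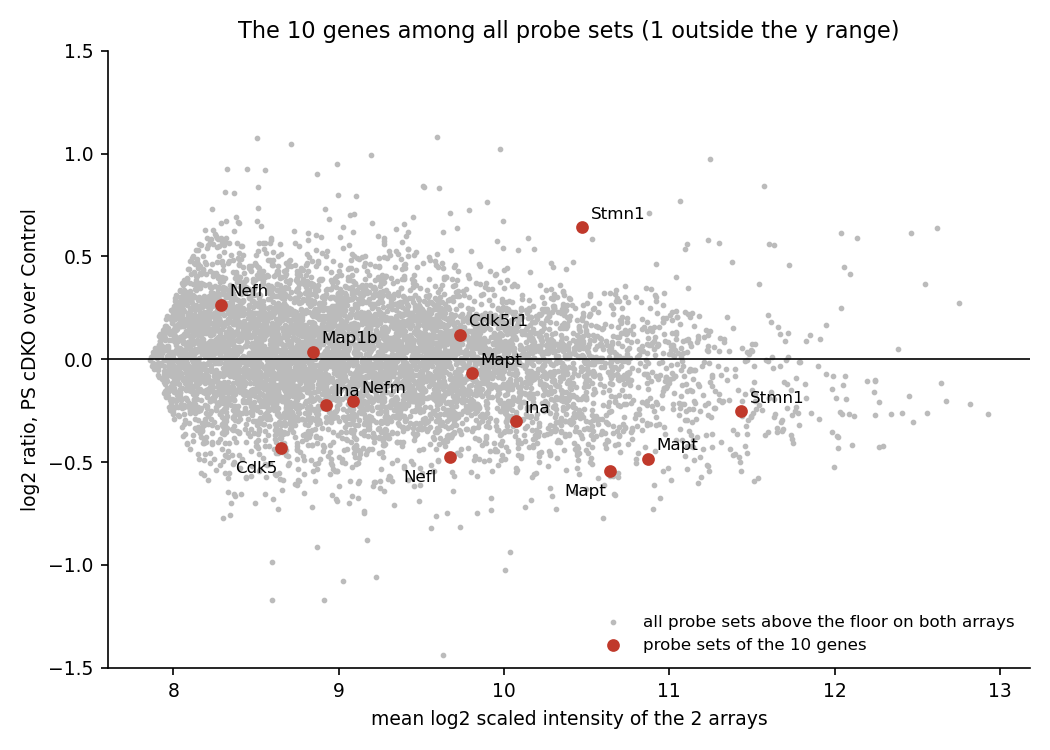
Log2 ratio against mean log2 scaled intensity of the 2 arrays for the 7091 probe sets exceeding the floor in both genotypes (grey), with the 13 probe sets of the 10 genes that are among them in red, and 1 other probe set outside the y range. The Mapt pair at -0.48 and -0.54 and the Stmn1 probe set at 0.64 lie near the edge of the cloud at their intensity.

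The other genes of these pathways were taken from 6 lists of cytoskeletal and tau-modifying genes. Among other intermediate filament genes, 5 of 8 were lower and 3 higher, with 0 at least 1.3-fold lower and 2 at least 1.3-fold higher. Those 2 were glial filament genes, Gfap (4.68-fold higher, 2145 in PS cDKO and 458 in control, scaled) and Vim (1.38-fold higher). The neural progenitor filament Nes was 1.18-fold and the nuclear lamin Lmnb1 1.23-fold lower.

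Among other MAPs and stathmins 11 of 17 were lower and 6 higher, with a median log2 ratio of -0.21 and 1 gene at least 1.3-fold lower. That gene was Stmn3, a neuronal stathmin (1287 in PS cDKO and 1690.1 in control, scaled; 1.31-fold), lower in both probe sets. Stmn4, also neuronal, was 1.25-fold lower, the autophagy-linked light chain Map1lc3a 1.27-fold and the dynein regulator Pafah1b1 1.25-fold lower. Tubulins had a median of -0.26, with 9 of 12 lower. That median was -0.18 after quantile normalization and -0.17 after lowess. The 2 at least 1.3-fold lower were Tubb6 (1.39-fold) and the neuronal β-tubulin Tubb3 (1.31-fold). Tuba4a and Tuba1a were 1.27-fold and 1.25-fold lower. The values of Tubb6, Tubb3 and Tuba1a rest only on suffixed probe sets, which can match related transcripts, so they may not be specific to these tubulins.

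Among other tau kinases 13 of 16 were lower, with a median of -0.13, 2 of them at least 1.3-fold and 0 higher by that size. Those 2 were Camk2b, a calcium/calmodulin-dependent kinase subunit (1.40-fold), and Mapk10, the neuronal JNK (1.36-fold). Gsk3a was 1.21-fold and Akt1 1.22-fold lower. Tau phosphatases and calpains had a median of -0.30, with 5 of 10 at least 1.3-fold lower and 1 at least 1.3-fold higher. That median was -0.09 after quantile normalization, -0.10 after lowess and -0.39 when the floor was lowered to the 20th percentile. The phosphatase Ppp5c was 1.61-fold, the calpain Capn2, of a protease family that cleaves p35 to p25, 1.45-fold and the PP2A catalytic subunit Ppp2cb 1.34-fold lower, whereas the PP2A regulatory subunit Ppp2r2a was 1.59-fold higher (423 in PS cDKO and 267 in control, scaled).

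Of 15 spectrin, ankyrin, motor and other scaffold genes 12 were lower, with a median of -0.13, 4 at least 1.3-fold lower and 2 at least 1.3-fold higher. The 4 were Kif5a (1.58-fold), a neuronal kinesin heavy chain that takes part in neurofilament transport, the dynein heavy chain Dync1h1 (1.54-fold), the spectrin Sptan1 (1.41-fold) and the dynactin subunit Dctn1 (1.35-fold). Kif5a rests only on suffixed probe sets. The 2 higher ones, Kif5b and Kif1b, are bounds, and were named after their values were seen. Every fold in these lists is to be read against the same background of 5.15% of genes at least 1.3-fold lower and 5.35% at least 1.3-fold higher. Counts of genes lower at any size have a background of 49.2%. They take in ratios near 0. Klc1 (-4.6e-05) and Csnk1d (-0.0025), with discordant probe sets, count as lower, and Mapk9 (0.02) counts as higher. Klc1, Csnk1d and Mapk9 were named after their values were seen.

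**Figure D4:**
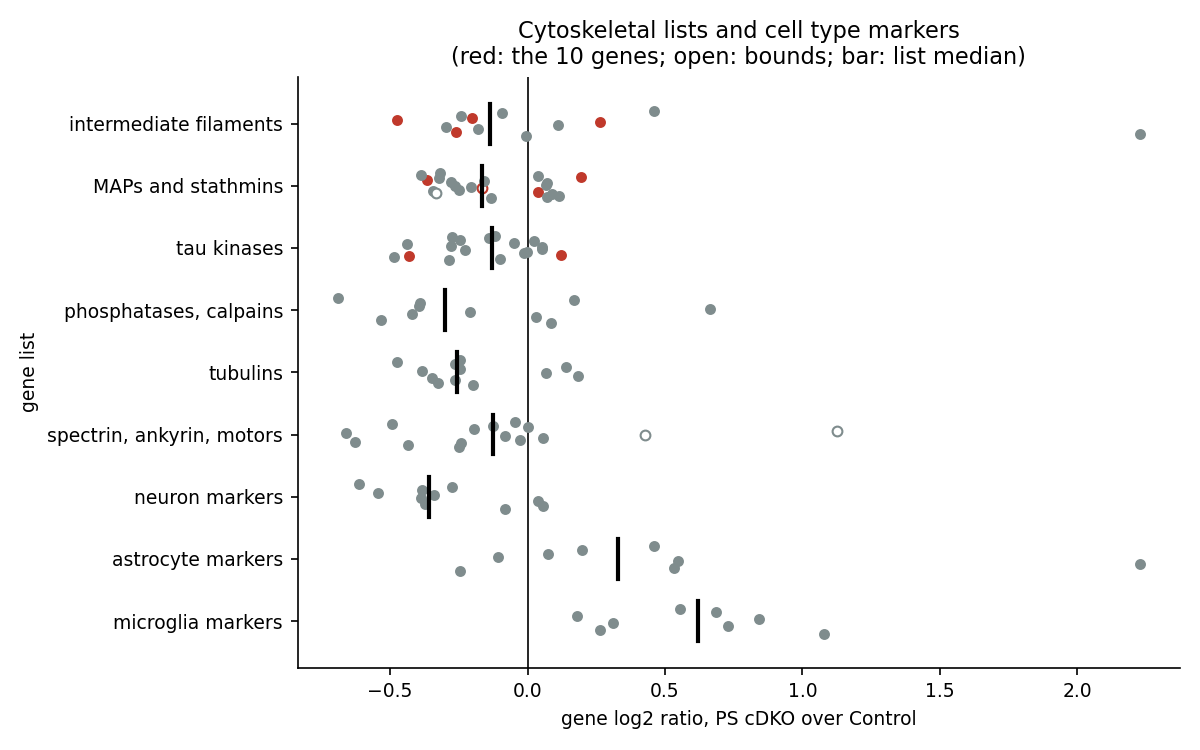
Gene log2 ratios (points; red for the 10 genes, open for bounds) and medians (bars) of 6 cytoskeletal lists and of neuron, astrocyte and microglia markers. The medians of the cytoskeletal lists lie between -0.30 and -0.13, that of the neuron markers at -0.36, and those of the astrocyte and microglia markers at 0.33 and 0.62. The cytoskeletal medians include the red points, and without them that of the intermediate filaments was -0.05.

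Values of cell type markers are set beside these genes. Neuron markers had a median log2 ratio of -0.36, with 8 of 10 lower, and their summed scaled intensity was 17952 in PS cDKO and 22573 in control. Vsnl1, a neuronal calcium sensor, was 1.53-fold and the neuronal surface protein Thy1 1.46-fold lower. Tubb3, Stmn3, Stmn2 and Gap43 are in this list as well as in those above, and the last 2 are the only neuron markers with ratios above 0 (0.04 and 0.06). The neuron marker median was computed under the reported processing only. Relative to this median, the log2 ratio was -0.12 for Nefl, -0.07 for Cdk5 and -0.0078 for Mapt. Another 5 genes lay above it, by 0.62 for Nefh, 0.48 for Cdk5r1, 0.40 for Map1b, 0.16 for Nefm and 0.10 for Ina. Map2, with only a bound, and Stmn1, with discordant probe sets, were not placed. With lowess, fitted against intensity, the log2 ratio of Mapt went from -0.37 to -0.31 and that of Cdk5 from -0.43 to -0.46. Small differences from the neuron marker median may therefore change with the processing.

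Markers of astrocytes and microglia lay on the other side of 0, and those of oligodendrocytes did not. Astrocyte markers had a median of 0.33, with 6 of 8 higher and a summed scaled intensity of 11339 in PS cDKO and 9634 in control. Gfap, at 2145 in PS cDKO and 458 in control, accounted for nearly all of the difference between these sums. Aldoc and Glul were lower, with log2 ratios of -0.25 and -0.11, and were named after their values were seen. Gja1 was 1.46-fold higher as the mean of 2 probe sets that disagree, at 0.02 and 1.08. Microglia markers had a median of 0.62, with 8 of 8 higher and a sum of 5845 in PS cDKO and 3703 in control, and C1qa and Ctss were 2.11-fold and 1.79-fold higher. Oligodendrocyte markers had a median of -0.17 over 6 genes, 4 of them lower, with Mobp 1.36-fold and Cldn11 1.28-fold lower, and sums of 4165 in PS cDKO and 4426 in control. The part of cell composition in the ratios of the 10 genes was not tested. Medians were -0.14 over 7 cortical projection neuron genes and -0.21 over 6 interneuron genes. Of the cortical projection neuron genes 5 were lower and 2 higher, with Nrgn 1.49-fold and Tbr1 1.43-fold lower. Of the interneuron genes 4 were lower and 2 higher, with Sst and Npy both 1.47-fold lower. The other medians were 0.01 over 3 endothelial genes (Cldn5 1.35-fold lower and Kdr 1.10-fold higher), 0.13 over 3 striatal genes (Drd2 1.17-fold and Penk 1.05-fold higher) and 0.02 over 3 cerebellar genes (Pcp2 at 0.09 and Calb1 at -0.20 on the log2 scale).

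The direction of 9 of the 10 genes was the same in every processing in which the gene had a value. Every processing used the same 2 arrays, and 7 of the 10 genes have 1 probe set. Among 749 genes with 2 or more probe sets exceeding the floor in both genotypes, the 2 brightest shared a sign in 57.9%. Nefl stayed between -0.51 and -0.46 and Nefh between 0.21 and 0.26. Only Stmn1 took the other sign, at -0.25, when its brightest probe set alone was used.

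**Figure D5:**
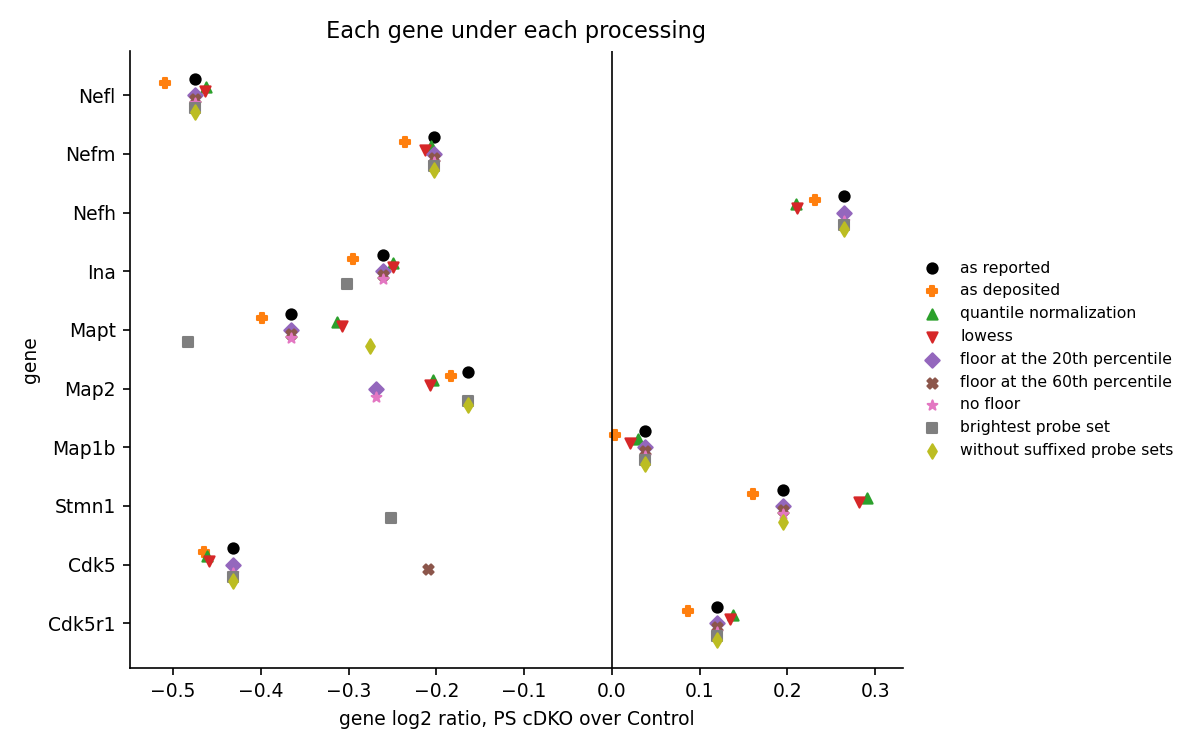
Gene log2 ratio of PS cDKO over control under the reported processing (black) and 8 alternatives (other symbols, slightly offset downward). Points of 1 gene lie close together except for Cdk5 with the higher floor (-0.21), Mapt under both probe set choices (-0.48 and -0.28), Map2 between -0.27 and -0.16, and Stmn1 with its brightest probe set (-0.25).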

How the data were processed

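The deposited table holds the authors' array intensities, linear and 1 per probe set and array. How the authors computed them (software, background, scaling) was not stated in the labels or the file. The medians were 305 in PS cDKO and 299.7 in control, and 18 and 13 values were negative. Probe sets were named through the platform annotation, with 10829 having 1 symbol, 396 several and 1193 none. Gene IDs of 8237 of 8251 genes matched a RefSeq table of GRCm38.p6, used for names. No probe set with several symbols named any of the 10 genes.

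A factor applied to the PS cDKO array brought the median log2 ratio to 0 over probe sets brighter than the median in both genotypes. Intensities below the 40th percentile of both arrays pooled, 232, were raised to that floor before taking log2, so a probe set at the floor in 1 genotype gives a bound. Probe sets of a gene that exceeded the floor in both genotypes were averaged, and bounds were averaged only for genes without such a probe set, which gave 5886 genes, 472 of them bounds. Genes were counted at 1.3-fold, with no test, since there was 1 array per genotype. The 10 genes, the lists and the fold were chosen with earlier results of these data known. All of the 10 genes, up to 4 further genes per cytoskeletal list and up to 2 per cell type list with the largest absolute log2 ratio that is not a bound were named. The calculation was run on simulated arrays with fold changes larger than those of the 10 genes, placed only in bright genes with 1 probe set. It is therefore no check of the smaller folds or dimmer genes reported here. Alternatives were the intensities as deposited, quantile normalization, lowess (span 0.3), no floor, a floor at the 20th or the 60th percentile, no suffixed probe sets, only a gene's brightest probe set, and 1.2-fold and 1.5-fold. Python 3.11.15, numpy 2.4.6, pandas 2.3.3, statsmodels 0.14.6 and matplotlib 3.10.9 were used.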

Additional observations from a re-analysis of the deposited data

How the results depend on the processing

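No paired analysis was possible because each genotype has 1 array, and no array could be left out. The number of the 10 genes at least 1.3-fold lower, 2, was 1 with the floor raised to the 60th percentile, where Cdk5 gave a bound of -0.21 on the log2 scale and Map2 and Nefh gave no ratio. It was 0 at 1.5-fold and 3 with the intensities as deposited, with the brightest probe set or at 1.2-fold. The number at least 1.3-fold higher, 0, became 1 at 1.2-fold. Signal close to the floor limits what can be said of Cdk5, Map2 and Nefh. Of 239 alternative values of genes, probe sets and medians, 236 moved by less than 0.21, the robust SD between probe sets of the same gene, which holds no variation between animals. The others were Cdk5, as gene and as probe set, with the higher floor, and Stmn1 with its brightest probe set (-0.25). Many of the 239 values could not move or repeat another. A gene with 1 probe set repeats the value of that probe set, and a changed floor leaves bright probe sets as they were. The count of 236 is therefore no measure of robustness. The median of all 10 genes stayed between -0.23 and -0.16 and that of the neurofilament genes between -0.27 and -0.20. That of Mapt, Map2, Map1b and Stmn1 ranged from -0.21 with the brightest probe set to 0.04 with the floor at the 60th percentile. The median of the intermediate filament list, -0.14 as reported, changed sign to 0.04 with no floor and 0.05 without suffixed probe sets. The causes were not tested.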
